A study of Mus musculus with 12 samples.

Results

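The genes of hepatic glucose production and use described here are Slc2a2, Hk1, Hk2, Pklr, Pkm, Pck1, Fbp1, G6pc and Gys2. They were chosen by gene symbol and are 9 of the 47069 genes listed for these libraries. All 9 had a mean of at least 0.1 FPKM, a level scaled to transcript length and library size, over the 12 libraries, as did 17386 genes in all. RNA with poly(A) tails was sequenced from isolated hepatocytes and from whole liver at P14, an age of 14 days, with 3 libraries in each of 4 groups, WT and Cdk1 Liv-/- of either compartment. Cdk1 Liv-/- mice carry Cdk1 flox/flox alleles and Albumin-Cre, which deletes in cells that express albumin, and for the WT mice no other allele is stated. Per the study's methods the mice were male and ate a standard diet freely under a 12 h light/dark cycle, while the sources used here do not give the hour or the feeding state at collection. Hepatocytes came from a published isolation protocol and whole liver was snap frozen. The paper states in general that its experiments had biological replicates, while the labels do not say for these libraries which animal each came from, so p-values measure the spread between these samples.

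Depth was estimated from the steps between low FPKM values. Per kb of transcript, an FPKM of 1 corresponded to 49.8, 38.5 and 47.2 reads in WT hepatocytes 1 to 3, and 40.4, 39.5 and 34.7 reads in the Cdk1 Liv-/- ones. For whole liver this was 41.6, 41.7 and 43.3 reads with the WT genotype, against 47.7, 47.3 and 48.1 reads with Cdk1 Liv-/-. On the longest annotated transcript, Hk2 then rested on 64 to 748 reads per library, Hk1 on 95 to 714 and Pkm on 806 to 8132. The other 6 genes rested on at least 3904 reads in every library, up to 151879 for Pck1, so counting error is small for them beside the spread between libraries.

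The liver takes up glucose after a meal, stores it as glycogen or sends it through glycolysis, and releases glucose between meals from glycogen and by gluconeogenesis. Glucose enters and leaves hepatocytes through a facilitative transporter, is phosphorylated by hexokinases, and is freed again by glucose 6-phosphatase. Suckling mice live on milk rich in fat and poor in carbohydrate, and their livers run gluconeogenesis strongly until weaning.

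Cdk1, the cell cycle kinase deleted in this model, was at 27.9, 20.4 and 28.2 FPKM in WT hepatocytes and at 9.68, 11.8 and 6.87 in Cdk1 Liv-/- hepatocytes. In whole liver it was at 25.3, 22.7 and 21.5 FPKM in WT and at 11.7, 12.1 and 14.2 in Cdk1 Liv-/-. In each compartment the highest Cdk1 Liv-/- library was lower than the lowest WT library, with a log2 fold change of -1.40 (SE 0.22, limma adjusted p = 0.0148) in hepatocytes and -0.85 (SE 0.10, adjusted p = 0.00353) in whole liver. The FPKM of a gene also counts exons outside the deleted part, so these values check the direction of the labels and not how complete the deletion was.

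A pair of libraries stood apart. Xist, which is transcribed from the inactive X chromosome of females, was at 158.32 FPKM in Cdk1 Liv-/- whole liver replicate 3 and at 0.14 or less in the other 11 libraries. The Y-linked genes Ddx3y, Eif2s3y, Kdm5d and Uty were listed at 0 in that library and were at 2.61 FPKM or more in each of the others, so it goes against the stated sex. WT hepatocytes replicate 3 held more RNA of other liver cells than the other WT hepatocyte libraries. Its 10 Kupffer cell and macrophage markers summed to 598 FPKM against 325 and 175 in replicates 1 and 2, near the 460, 515 and 520 of WT whole liver, and its 9 erythroid markers summed to 583 FPKM against 148 and 109. The log2 fold changes of the 9 genes within each compartment are therefore also given without the library that stood apart in it.

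In WT hepatocytes the levels ran from Pck1 at 1146 ± 51.7 FPKM (SD, n = 3) over Fbp1 at 625 ± 74.5, G6pc at 351 ± 26.1, Slc2a2 at 119 ± 19.9, Gys2 at 88.4 ± 2.42, Pklr at 43.7 ± 10.8 and Pkm at 21.6 ± 16.6 to Hk1 at 1.78 ± 1.44 and Hk2 at 0.67 ± 0.55. FPKM is a level per length of transcript, so this order compares genes. Neighbours in it kept apart except for Pklr and Pkm, whose 3 libraries overlapped, and Hk1 and Hk2, which overlapped as well. WT whole liver gave the same order, with Pck1 at 827 ± 211 FPKM, Fbp1 at 644 ± 83.5, G6pc at 249 ± 75.1, Slc2a2 at 105 ± 10.36, Gys2 at 92.4 ± 2.65, Pklr at 43.0 ± 4.50, Pkm at 28.2 ± 4.86, Hk1 at 2.27 ± 0.46 and Hk2 at 1.24 ± 0.36. There Pck1 overlapped Fbp1 and Slc2a2 overlapped Gys2, while the other neighbours kept apart.

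**Figure D1:**
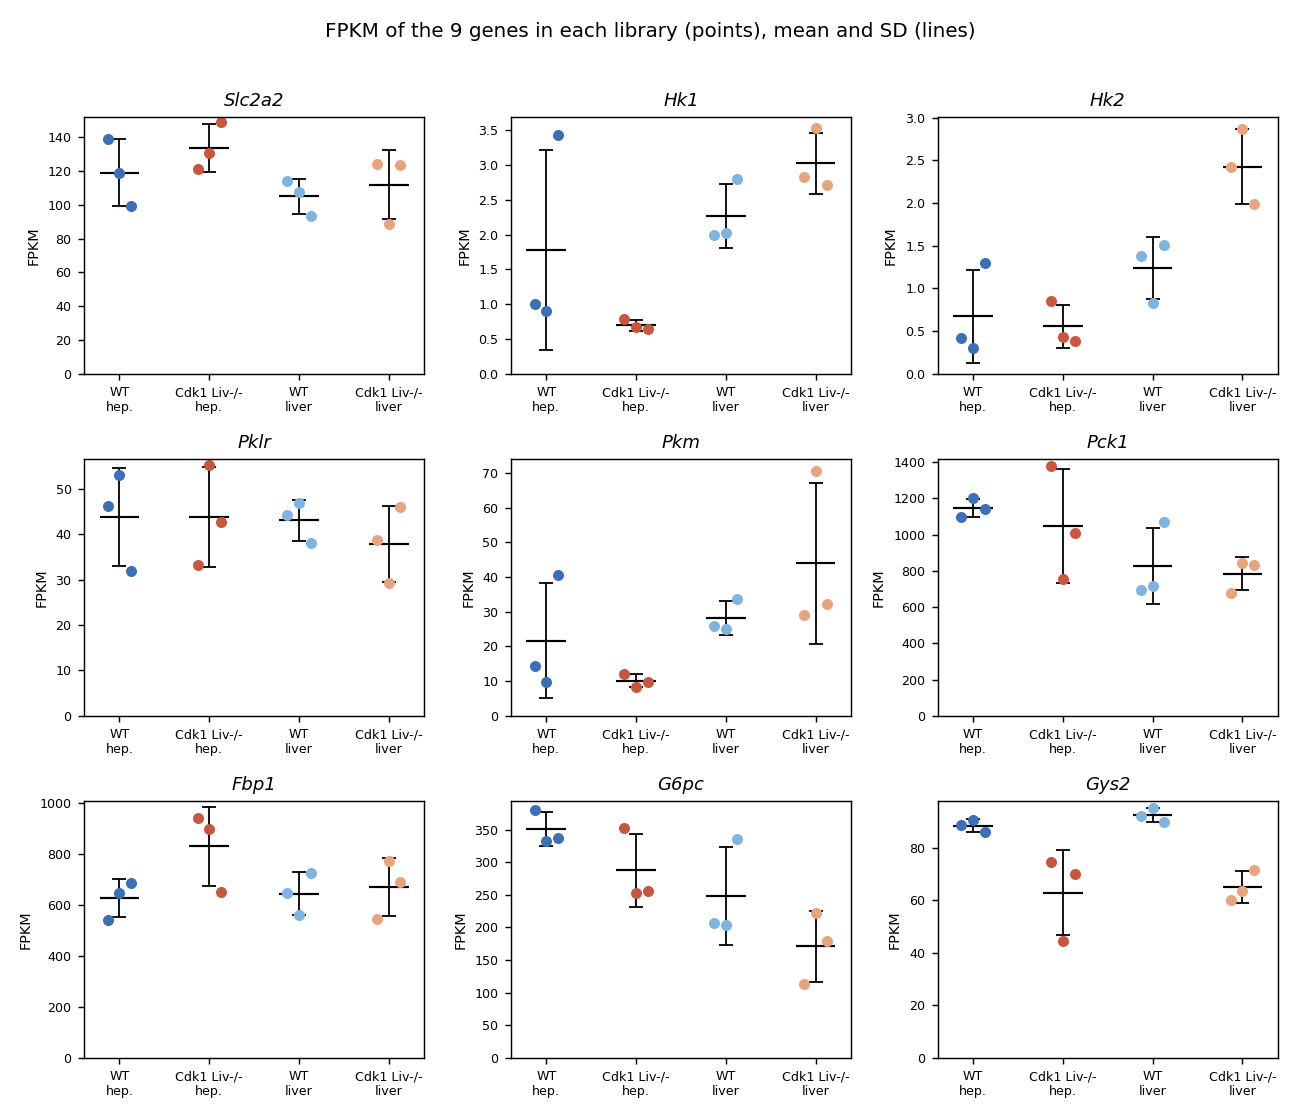
FPKM of the 9 genes in each of the 12 libraries, on linear axes that start at 0. Points are libraries, the long horizontal line is the mean of 3 libraries and the bars with caps are the SD. The Gys2 points of Cdk1 Liv-/- libraries lie below the WT points in both compartments, and the Hk2 points of Cdk1 Liv-/- whole liver, at 1.99 to 2.87 FPKM, lie above those of WT whole liver, at 0.83 to 1.51.

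The first question was whether loss of Cdk1 goes with another level of these genes within a compartment. In whole liver 2 of the 9 genes passed the test, a limma adjusted p of at most 0.1 over all 17386 genes: Hk2 was higher and Gys2 was lower in Cdk1 Liv-/-. That is 1 gene higher, where 38.0% of all genes tested were higher, and 1 gene lower, where 7.53% were lower. In isolated hepatocytes 0 of the 9 genes passed with limma in either direction, where 12.1% of all genes were higher and 6.61% lower. Of the 9, 1 gene (Gys2, lower) had an unadjusted p under 0.05 in hepatocytes, and 0 passed by a two-sample test per gene. Of the 17386 genes, 4939 and 1920 did. Fold changes are on the scale of log2(FPKM + 0.5), which understates changes of genes as low as Hk1 and Hk2. Over all genes tested, the median log2 fold change was 0.05 in hepatocytes and 0.18 in whole liver, and over the 9 genes it was -0.17 and 0.05. Scaling the libraries by median-ratio size factors shifted the whole liver median of all genes by -0.17, so the whole liver changes of the 9 genes are given below also relative to the median of all genes. The shares of all genes in whole liver depend on this scaling. With these factors 3104 of 17340 genes were higher and 2853 lower there by limma, and Hk2 and Gys2 still passed.

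**Figure D2:**
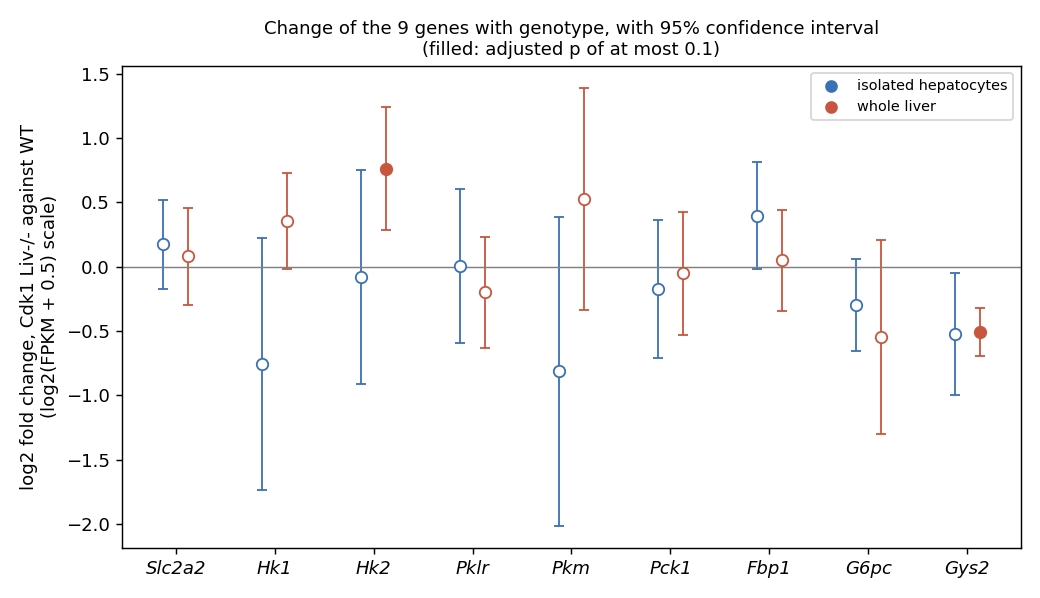
Log2 fold change of the 9 genes, Cdk1 Liv-/- against WT, on the scale of log2(FPKM + 0.5), in isolated hepatocytes (blue) and whole liver (red). Bars are 95% confidence intervals from limma over 3 against 3 libraries, and filled points have an adjusted p of at most 0.1. The filled points are Hk2 at 0.76 and Gys2 at -0.51, both in whole liver; with median-ratio size factors the small positive whole liver values of Fbp1 and Slc2a2 turn negative, at -0.17 and -0.14, and that of Pklr in hepatocytes does too, at -0.07.

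Without WT hepatocytes replicate 3, the log2 fold changes in hepatocytes were 0.05 for Slc2a2, -0.28 for Hk1, 0.27 for Hk2, -0.21 for Pklr, -0.24 for Pkm, -0.18 for Pck1, 0.47 for Fbp1, -0.33 for G6pc and -0.54 for Gys2. Without Cdk1 Liv-/- whole liver replicate 3, those in whole liver were 0.00 for Slc2a2, 0.42 for Hk1, 0.87 for Hk2, -0.35 for Pklr, 0.69 for Pkm, -0.10 for Pck1, 0.02 for Fbp1, -0.61 for G6pc and -0.58 for Gys2, and Hk2 and Gys2 passed. Of the other pathway genes described further below, 23 passed in hepatocytes and 43 in whole liver without these libraries, where 2260 and 6471 of the 17386 genes did.

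Slc2a2 encodes GLUT2, the transporter that carries glucose across the hepatocyte membrane in both directions. It was at 139, 119 and 99.3 FPKM in WT hepatocytes and at 121, 131 and 148.8 in Cdk1 Liv-/- hepatocytes. Whole liver had 114, 108 and 93.6 FPKM in WT and at 124, 88.45 and 123 in Cdk1 Liv-/-. The groups overlapped in both compartments, and the lowest of the 12 libraries was Cdk1 Liv-/- whole liver replicate 2. The log2 fold change was 0.17 (95% confidence interval -0.17 to 0.52, limma adjusted p = 0.467) in hepatocytes, with 0.29 without WT replicate 1, 0.05 without WT replicate 3 and 0.09 without Cdk1 Liv-/- replicate 3. In whole liver it was 0.08 (-0.30 to 0.46, adjusted p = 0.715), or -0.10 relative to the median of all genes, and it turned to -0.14 with median-ratio size factors. It was also just under 0 without WT whole liver replicate 3 or without Cdk1 Liv-/- whole liver replicate 1 (-0.0031). Without Cdk1 Liv-/- whole liver replicate 2 it was larger, at 0.24 (limma adjusted p = 0.117). Slc2a1, a glucose transporter of many other tissues, averaged 7.32 and 7.73 FPKM in WT and Cdk1 Liv-/- hepatocytes and 8.10 and 10.7 in whole liver, and passed the test in neither compartment.

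Hk1 and Hk2 encode hexokinases with a high affinity for glucose, which most tissues other than adult hepatocytes use. Hk1 was at 1.01, 0.90 and 3.44 FPKM in WT hepatocytes and at 0.79, 0.67 and 0.64 in Cdk1 Liv-/- hepatocytes. All 3 Cdk1 Liv-/- hepatocyte libraries were below all WT ones, but the WT mean was set largely by replicate 3, the library with more RNA of other cells. Its log2 fold change was -0.76 (SE 0.40, limma adjusted p = 0.273), and without that replicate it was -0.28 (adjusted p = 0.288), over alternatives with adjusted p from 0.116 to 0.441. In whole liver Hk1 was at 1.99, 2.02 and 2.80 FPKM in WT and at 2.83, 3.53 and 2.71 in Cdk1 Liv-/-. The highest WT library lay within the Cdk1 Liv-/- range. This made a log2 fold change of 0.35 (SE 0.15, adjusted p = 0.122), or 0.17 relative to the median of all genes. Without WT whole liver replicate 3, that highest WT library, Hk1 passed the test at 0.48 (adjusted p = 0.0579). It passed in 3 of 17 alternatives, the others being a filter at a mean of 1 FPKM and the same FPKM sum in every library, with adjusted p from 0.0579 to 0.478.

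Hk2, the hexokinase best known from muscle, fat and dividing cells, was at 0.42, 0.30 and 1.30 FPKM in WT hepatocytes and at 0.85, 0.43 and 0.39 in Cdk1 Liv-/- hepatocytes. WT replicate 3 was again the highest and WT replicate 2 the lowest, with the Cdk1 Liv-/- libraries between them. Hk2 had a log2 fold change of -0.08 (95% confidence interval -0.91 to 0.75), and it turned to 0.27 without WT hepatocytes replicate 3 and to 0.03 without Cdk1 Liv-/- hepatocytes replicate 3. In whole liver Hk2 was at 1.38, 0.83 and 1.51 FPKM in WT and at 2.42, 2.87 and 1.99 in Cdk1 Liv-/-. All 3 Cdk1 Liv-/- libraries were above all WT libraries. Hk2 rose by 0.76 on the log2 scale (SE 0.20, limma adjusted p = 0.0312), which was 0.58 relative to the median of all genes. It was 0.58 with median-ratio size factors (adjusted p = 0.0901) and 0.87 without Cdk1 Liv-/- whole liver replicate 3, the library with Xist (adjusted p = 0.0480). Over 17 alternatives Hk2 kept its direction in whole liver and passed in 16, with adjusted p from 0.0220 to 0.0935; the exception asked for a fold change of at least 1 on the log2 scale.

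Pklr and Pkm encode the pyruvate kinases, which carry out the last step of glycolysis. Pklr is the form of liver and red cells, and Pkm gives the M1 and M2 forms of other tissues, which cannot be separated in values per gene. Pklr was at 46.3, 52.95 and 31.8 FPKM in WT hepatocytes and at 33.3, 55.2 and 42.6 in Cdk1 Liv-/- hepatocytes. Whole liver had Pklr at 44.1, 46.9 and 38.1 FPKM in WT and at 38.7, 29.2 and 45.9 in Cdk1 Liv-/-. The groups overlapped in both compartments, and the lowest of the 12 libraries was Cdk1 Liv-/- whole liver replicate 2. The log2 fold change was 0.00 (95% confidence interval -0.60 to 0.60) in hepatocytes and -0.20 (-0.63 to 0.23) in whole liver, the latter -0.38 relative to the median of all genes. The whole liver value was -0.02 without Cdk1 Liv-/- replicate 2 and -0.35 without replicate 3. The hepatocyte value has no settled sign: it was -0.07 with median-ratio size factors, -0.21 without WT hepatocytes replicate 3 and -0.18 without Cdk1 Liv-/- hepatocytes replicate 2.

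Pkm was at 14.3, 9.87 and 40.5 FPKM in WT hepatocytes and at 12.1, 8.39 and 9.80 in Cdk1 Liv-/- hepatocytes. WT replicate 3 stood above all other hepatocyte libraries, which overlapped between the genotypes. Pkm had a log2 fold change of -0.82 (SE 0.49, limma adjusted p = 0.330) with that library and -0.24 (adjusted p = 0.568) without it. In whole liver Pkm was at 25.75, 25.02 and 33.8 FPKM in WT and at 29.0, 70.7 and 32.3 in Cdk1 Liv-/-. Only Cdk1 Liv-/- replicate 2 lay above the WT range. That gave a log2 fold change of 0.53 (95% confidence interval -0.33 to 1.39, adjusted p = 0.284), or 0.35 relative to the median of all genes, and was as low as 0.13 over the alternatives.

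Hk1, Hk2 and Pkm varied together over the 12 libraries. As a description, with values of log2(FPKM + 0.5) and libraries that share compartment and genotype, Pearson's r was 0.97 for Hk1 and Pkm, 0.90 for Hk2 and Pkm and 0.88 for Hk1 and Hk2. Pkm ran opposite to Slc2a2 (r = -0.79) and to Pklr (r = -0.67). Among genes with a mean of at least 1 FPKM, the 3 nearest in pattern to Hk1 were Parvb (r = 0.99), Plxnd1 (0.98) and Vstm4 (0.98). For Pkm they were Syk (0.99), a kinase of blood cells, Ctla2a (0.99) and Igsf6 (0.99), and for Hk2 they were Kdelc2 (0.97), Sparcl1 (0.97) and Frzb (0.97). Syk was at 1.79, 1.23 and 3.52 FPKM in WT hepatocytes and Sparcl1 was at 15.9, 26.3 and 16.8 FPKM in Cdk1 Liv-/- whole liver against 4.11, 4.07 and 6.57 in WT, so WT replicate 3 was the highest hepatocyte library for Syk as for Pkm, and Cdk1 Liv-/- whole liver replicate 2 the highest of all for Sparcl1 as for Hk2.

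RNA levels in bulk samples do not tell fewer cells of a type from less RNA per cell, and markers of other liver cells are given beside these 3 genes. The 10 Kupffer cell and macrophage markers, led by Cd5l, summed to 203, 152 and 131 FPKM in Cdk1 Liv-/- hepatocytes, below the WT values given above except that WT replicate 2 lay among them, and to 604, 832 and 636 in Cdk1 Liv-/- whole liver, above WT. In hepatocytes 0 of the 10 were higher with limma and 1 was lower, and in whole liver 4 were higher and 0 lower. The 8 sinusoidal endothelial markers, led by Fcgr2b, summed to 140, 95.65 and 257 FPKM in WT hepatocytes and to 65.9, 43.5 and 47.9 in Cdk1 Liv-/- hepatocytes, where 8 of 8 were lower. In whole liver they summed to 120, 142 and 173 FPKM in WT and to 155, 192 and 156 in Cdk1 Liv-/-, with 2 of 8 higher. The 8 stellate cell and fibroblast markers, led by Col3a1, summed to 185, 113 and 372 FPKM (WT) and 111, 110.56 and 95.1 (Cdk1 Liv-/-) in hepatocytes. Their whole liver sums were 417, 415 and 471 FPKM (WT) and 809.67, 994 and 758 (Cdk1 Liv-/-). Of these 8, 1 was lower in hepatocytes and 5 were higher in whole liver. Over all genes 38.0% were higher in whole liver, so 4 of 10 Kupffer cell markers and 2 of 8 endothelial markers are no more than a like share. The 5 of 8 stellate cell markers are a larger share. With median-ratio size factors 3104 of 17340 genes were higher there, and the marker counts were not redone. In hepatocytes 6.61% of all genes were lower. No marker of these 3 lists was at 0 in any library. Their part in the values of Hk1, Hk2 and Pkm was not tested.

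The 10 monocyte and neutrophil markers, led by Lyz2, summed to 59.5, 39.8 and 122 FPKM (WT) and 54.1, 41.2 and 52.9 (Cdk1 Liv-/-) in hepatocytes. Their whole liver sums were 121, 105 and 134 FPKM (WT) and 225, 477 and 356 (Cdk1 Liv-/-). Of the 10, 8 were higher in whole liver and 1 was higher in hepatocytes, and 1 was at 0 in each of WT hepatocytes replicate 1 and Cdk1 Liv-/- hepatocytes replicates 2 and 3. The library with the highest sum, Cdk1 Liv-/- whole liver replicate 2, was also the one with the highest Pkm, Hk1 and Hk2. Of 5 cholangiocyte markers tested among 6 listed, 4 were higher in both compartments, and Spp1 made up most of their sum, which was 14.6 to 30.1 FPKM (WT) and 66.8 to 124 (Cdk1 Liv-/-) in hepatocytes and 45.9 to 62.2 (WT) and 139 to 270.41 (Cdk1 Liv-/-) in whole liver. Of the 6, 1 was at 0 in WT hepatocytes replicate 2. The 9 erythroid markers, led by Hbb-bs, had 2 lower in hepatocytes and 3 lower in whole liver, and summed to 24.8 to 101 FPKM in Cdk1 Liv-/- hepatocytes. Their whole liver sums were 1106 to 2172 FPKM (WT) and 1166 to 1769 FPKM (Cdk1 Liv-/-). The 8 lymphocyte markers, led by Igkc, had 3 lower in hepatocytes and 2 lower in whole liver, with sums of 1.85 to 12.65 FPKM in hepatocytes and 14.7 to 28.7 in whole liver.

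**Figure D3:**
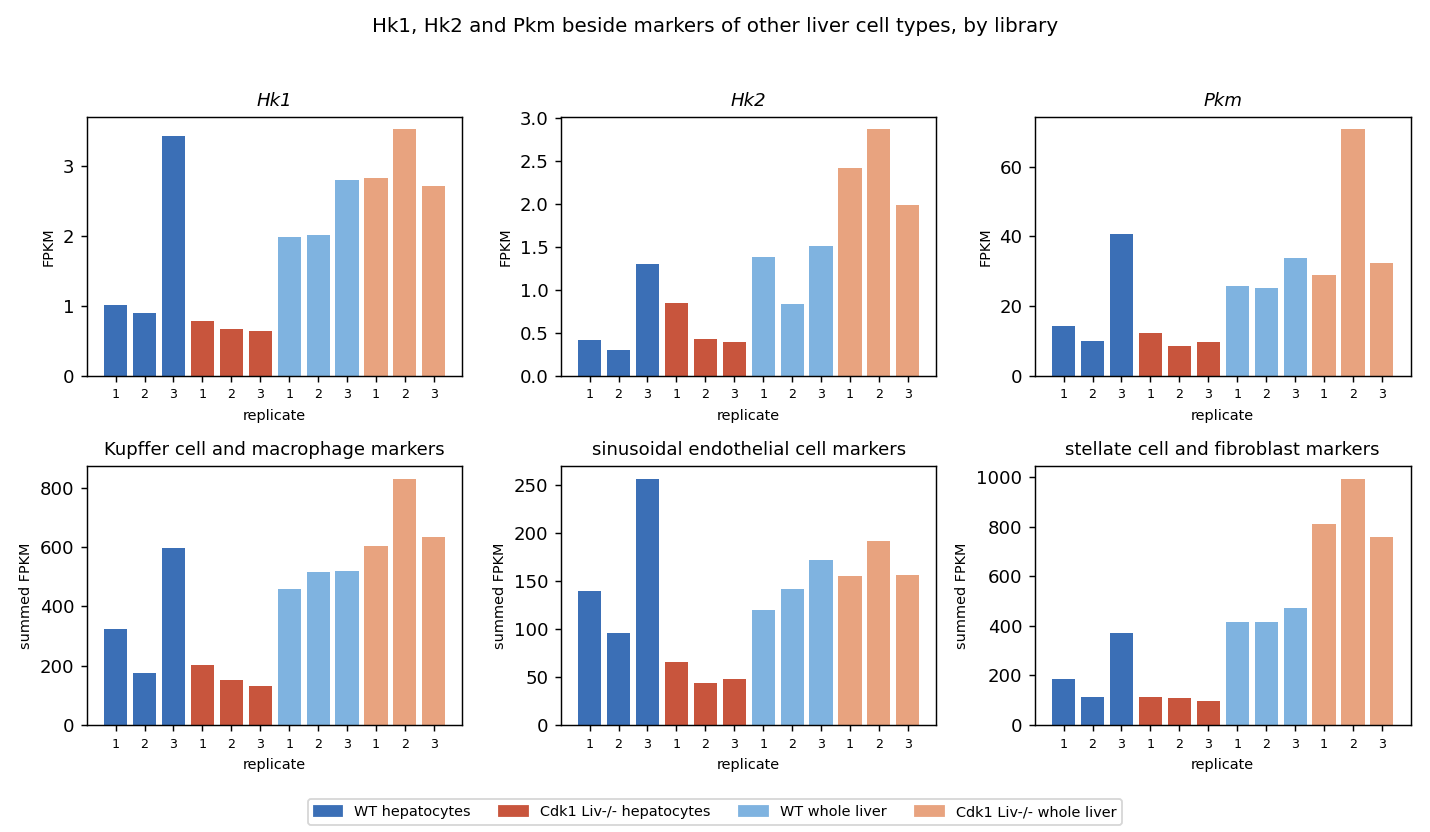
Bars, from 0, of the FPKM of Hk1, Hk2 and Pkm (top) and of the summed FPKM of markers of Kupffer cells and macrophages, sinusoidal endothelial cells, and stellate cells and fibroblasts (bottom) in each library. Colours are the 4 groups and numbers the replicates. WT hepatocytes replicate 3 is the highest hepatocyte library in all 6 panels, and Cdk1 Liv-/- whole liver replicate 2 is the highest whole liver library in all 6.

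As the values of Hk1, Hk2 and Pkm varied together, their promoters were read, and those with a match to a motif below are shown, as 250 bases before to 50 after the start given by RefSeq on GRCm38.p6, 5′ to 3′ on the strand of the gene. Of the 9 genes, 8 had promoters in that table, 11 in all, and Gys2 had none matched. The motifs searched on both strands were the E-box CACGTG, the CRE core ACGTCA, the forkhead core TGTTTAC, the GC box GGGCGG and the TATA box TATAAA. They occurred in 7.15%, 7.51%, 3.65%, 35.7% and 13.6% of 32851 promoters of this length. Capitals mark the matches, none of which overlapped another, and a match describes the letters only. Hk2 is on the minus strand at chr6:82774405-82774704 and has 3 GC boxes and 1 CRE core. Pkm is on the plus strand at chr9:59656326-59656625 for the upstream of its 2 promoters and has 1 GC box and 1 CRE core. Both promoters of Hk1, the closest to Pkm in pattern among the 9 genes, and the second of Pkm had 0 matches to the motifs.
Hk2: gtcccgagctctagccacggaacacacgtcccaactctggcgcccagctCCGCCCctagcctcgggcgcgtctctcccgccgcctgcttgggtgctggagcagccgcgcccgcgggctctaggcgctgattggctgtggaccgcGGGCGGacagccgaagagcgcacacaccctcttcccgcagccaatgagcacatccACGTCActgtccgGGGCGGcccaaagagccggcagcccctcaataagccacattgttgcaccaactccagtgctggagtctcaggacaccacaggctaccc
Pkm: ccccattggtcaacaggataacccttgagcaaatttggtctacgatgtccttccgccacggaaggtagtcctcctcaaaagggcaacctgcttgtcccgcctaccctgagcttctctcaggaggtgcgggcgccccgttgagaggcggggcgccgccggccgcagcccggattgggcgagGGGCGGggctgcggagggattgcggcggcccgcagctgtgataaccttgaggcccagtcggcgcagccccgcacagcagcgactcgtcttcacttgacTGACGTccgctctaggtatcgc

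Pck1, Fbp1 and G6pc encode the enzymes that gluconeogenesis uses in place of the irreversible steps of glycolysis. Pck1, the cytosolic phosphoenolpyruvate carboxykinase, was at 1096, 1199 and 1143 FPKM in WT hepatocytes and at 1378, 753 and 1006 in Cdk1 Liv-/- hepatocytes. Whole liver had Pck1 at 695, 714 and 1070.2 FPKM in WT and at 677, 843 and 834 in Cdk1 Liv-/-. The Cdk1 Liv-/- hepatocyte libraries lay on both sides of the WT ones, and in whole liver WT replicate 3 was above all the rest. The log2 fold change was -0.17 (95% confidence interval -0.71 to 0.36, limma adjusted p = 0.642) in hepatocytes and -0.05 (-0.53 to 0.42, adjusted p = 0.854) in whole liver, or -0.23 there relative to the median of all genes. Single libraries set the sign: it was 0.04 in hepatocytes without Cdk1 Liv-/- replicate 2, and in whole liver 0.15 without WT replicate 3 and 0.05 without Cdk1 Liv-/- replicate 1. Pck2, the mitochondrial form of the same enzyme, was at 1.61, 1.51 and 1.84 FPKM in WT hepatocytes and at 8.39, 6.96 and 6.39 in Cdk1 Liv-/- hepatocytes, and at 1.72, 2.20 and 2.45 against 5.46, 6.03 and 6.51 in whole liver. It rose by 1.84 (SE 0.15, adjusted p = 0.00211) in hepatocytes and by 1.32 (SE 0.13, adjusted p = 0.00228) in whole liver, past the test in all 17 alternatives of each, yet all its levels were far below those of Pck1.

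Fbp1, the fructose 1,6-bisphosphatase of liver, was at 542, 648 and 686 FPKM in WT hepatocytes and at 941, 896 and 652 in Cdk1 Liv-/- hepatocytes. Whole liver had Fbp1 at 647, 559 and 726 FPKM in WT and at 546, 771 and 691 in Cdk1 Liv-/-. Cdk1 Liv-/- hepatocytes replicates 1 and 2 were above all WT hepatocytes and replicate 3 was within their range, and the whole liver groups overlapped. The log2 fold change in hepatocytes was 0.40 (SE 0.17, limma adjusted p = 0.193). It passed without Cdk1 Liv-/- hepatocytes replicate 3, at 0.56 (adjusted p = 0.0868), and adjusted p ran from 0.0868 to 0.388 over the alternatives. In whole liver it was 0.05 (95% confidence interval -0.34 to 0.44), or -0.13 relative to the median of all genes, and turned to -0.17 with median-ratio size factors, -0.05 without WT whole liver replicate 2 and -0.06 without Cdk1 Liv-/- whole liver replicate 2. Fbp2, the form of muscle, was low, with means of 0.21 FPKM in both hepatocyte groups and of 0.2 (WT) and 0.83 (Cdk1 Liv-/-) in whole liver, where the groups did not overlap. It passed there at 0.84 (SE 0.31, adjusted p = 0.0852), but in only 6 of 16 alternatives (adjusted p from 0.0318 to 0.197), and of the 6 libraries only Cdk1 Liv-/- replicate 3 could be left out without losing the call. Without each of the other 5 the value was 0.51 to 0.90. The nearest patterns to Fbp1 were those of Aldh1b1 (r = 0.95), Fh1 (0.92) and Mmd2 (0.85) over the 12 libraries.

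G6pc, the catalytic subunit of glucose 6-phosphatase, was at 381, 333 and 338 FPKM in WT hepatocytes and at 353, 253 and 257 in Cdk1 Liv-/- hepatocytes. Whole liver had G6pc at 207, 204 and 336 FPKM in WT and at 114, 222 and 178.5 in Cdk1 Liv-/-. In each compartment 2 of the 3 Cdk1 Liv-/- libraries were below all WT libraries and 1 was within their range. The log2 fold change was -0.30 (SE 0.15, limma adjusted p = 0.240) in hepatocytes and -0.55 (SE 0.31, adjusted p = 0.211) in whole liver, or -0.73 there relative to the median of all genes. The whole liver value was -0.31 without WT replicate 3 and -0.28 without Cdk1 Liv-/- replicate 1. G6pc passed in hepatocytes without Cdk1 Liv-/- replicate 1, at -0.46 (adjusted p = 0.0562), over alternatives from 0.0562 to 0.465. Slc37a4, the carrier that brings glucose 6-phosphate to this enzyme in the endoplasmic reticulum, was at 51.9, 54.6 and 51.4 FPKM in WT whole liver and at 33.5, 23.8 and 41.2 in Cdk1 Liv-/- whole liver. It fell by 0.71 there (SE 0.19, adjusted p = 0.0371), which was lost without WT whole liver replicate 1 (-0.71, adjusted p = 0.102) or replicate 2 (-0.68, adjusted p = 0.104), over alternatives from 0.0248 to 0.104. In hepatocytes it was at 55.4, 56.5 and 55.1 FPKM in WT and at 68.85, 36.65 and 89.3 in Cdk1 Liv-/-, with no common direction. Without Cdk1 Liv-/- hepatocytes replicate 2 it passed as higher (0.49, adjusted p = 0.0871, the lowest over the alternatives), and it was -0.15 without replicate 3. With all libraries the difference between the compartments missed the threshold (0.83, SE 0.39, adjusted p = 0.222). G6pc3, the widely expressed form of the phosphatase, averaged 4.33 and 4.18 FPKM in WT and Cdk1 Liv-/- hepatocytes and 5.34 and 6.42 in whole liver. It passed in neither compartment with all libraries, and in whole liver it passed as higher without WT replicate 3 (0.35, adjusted p = 0.0632, against 0.809 with median-ratio size factors).

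Pck1 and G6pc also varied together, with r = 0.84 over the 12 libraries, and so their promoters are shown. The genes nearest to Pck1 were Slc38a2 (r = 0.89), an amino acid transporter, Cnst (0.88) and Rabgef1 (0.87), and those nearest to G6pc were Gm15690 (0.91), Sds (0.885), which encodes serine dehydratase, and Etnppl (0.85). Pck1 is on the plus strand at chr2:173152823-173153122 and G6pc on the plus strand at chr11:101367466-101367765, both RefSeq on GRCm38.p6. Capitals mark, in Pck1, 1 CRE core and 1 GC box and, in G6pc, 1 TATA box.
Pck1: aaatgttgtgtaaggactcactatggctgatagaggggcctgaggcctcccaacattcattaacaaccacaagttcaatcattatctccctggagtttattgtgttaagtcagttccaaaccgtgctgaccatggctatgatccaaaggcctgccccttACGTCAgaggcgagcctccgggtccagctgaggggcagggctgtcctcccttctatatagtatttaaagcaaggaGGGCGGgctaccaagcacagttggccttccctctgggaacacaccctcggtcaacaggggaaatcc
G6pc: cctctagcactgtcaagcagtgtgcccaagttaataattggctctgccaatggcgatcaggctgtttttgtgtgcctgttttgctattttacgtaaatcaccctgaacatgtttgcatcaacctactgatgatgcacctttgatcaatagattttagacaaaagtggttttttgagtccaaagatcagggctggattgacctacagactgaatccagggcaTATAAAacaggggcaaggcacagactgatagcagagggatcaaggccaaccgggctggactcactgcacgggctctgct

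Gys2, the glycogen synthase of liver, was at 88.8, 90.6 and 85.8 FPKM in WT hepatocytes and at 74.5, 44.3 and 69.9 in Cdk1 Liv-/- hepatocytes. In whole liver it was at 92.0, 95.2 and 89.9 FPKM in WT and at 59.9, 63.5 and 71.6 in Cdk1 Liv-/-. Every Cdk1 Liv-/- library was below every WT library of either compartment. In whole liver Gys2 fell by 0.51 on the log2 scale (SE 0.08, limma adjusted p = 0.00691), which was -0.69 relative to the median of all genes, -0.73 with median-ratio size factors (adjusted p = 0.00267) and -0.58 without the library with Xist (adjusted p = 0.00911). Over 17 alternatives it passed in 16, with adjusted p from 0.00267 to 0.0390, and missed the call where a log2 fold change of at least 1 was asked for. In hepatocytes the log2 fold change was similar in size, -0.52 (95% confidence interval -0.999 to -0.05), but the Cdk1 Liv-/- libraries were more spread and it missed the threshold (adjusted p = 0.146). It passed there in 1 fit of all 12 libraries (adjusted p = 0.0360) and without Cdk1 Liv-/- hepatocytes replicate 2, the lowest library, at -0.29 (adjusted p = 0.0752), over alternatives from 0.0360 to 0.281. Without WT hepatocytes replicate 3 it was -0.54 (adjusted p = 0.242).

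The genes nearest to Gys2 over the 12 libraries were Gm6710 (r = 0.98), Macrod1 (0.92) and Chchd2 (0.92). Macrod1 was at 12.8, 15.2 and 12.8 FPKM in WT hepatocytes and at 6.74, 3.09 and 4.37 in Cdk1 Liv-/- hepatocytes, with its lowest library the same as that of Gys2. The 10 hepatocyte markers, led by Alb and including Tat, which is also among the genes of precursor supply below, summed to 83236, 91543 and 86174 FPKM in WT hepatocytes and to 58743, 59698 and 56330 FPKM in Cdk1 Liv-/- hepatocytes, and to 85627, 84188 and 86456 FPKM against 66753, 59171 and 64796 in whole liver. Of the 10, 1 was higher and 2 were lower in hepatocytes and 4 were lower in whole liver, none was at 0, and their part in the values of Gys2 was not tested. Gys1, the glycogen synthase of muscle, averaged 1.49 and 1.5 FPKM in hepatocytes and 1.51 and 2.03 in whole liver, for WT and Cdk1 Liv-/-. Pygl, the liver glycogen phosphorylase that releases glucose from the store, averaged 171 and 169 FPKM in hepatocytes and 174 and 139 in whole liver. Its whole liver groups did not overlap, at a log2 fold change of -0.34 (SE 0.14, limma adjusted p = 0.112), and it passed as lower with median-ratio size factors (-0.56, adjusted p = 0.0461), in 1 fit of all 12 libraries (adjusted p = 0.0838) and with a filter at a mean of 1 FPKM, over alternatives up to 0.271. Gys1 did not pass in whole liver and neither gene passed in hepatocytes.

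A difference between the compartments in the change with genotype was tested as an interaction in 1 fit of all 12 libraries. As hepatocytes were isolated and whole liver was snap frozen, handling and the cells in a sample cannot be told apart in this test. With limma 0 of the 9 genes passed, where 2.35% of all genes had a higher and 7.49% a lower log2 fold change in hepatocytes than in whole liver. Of the 9, 1 gene (Hk1) had an unadjusted p under 0.05, and 0 passed by the two-sample test. Of the 17386 genes, 4106 and 939 did. The difference, hepatocytes minus whole liver, was -1.11 for Hk1 (SE 0.46, adjusted p = 0.173), -0.84 for Hk2 (SE 0.42, adjusted p = 0.255) and -1.34 for Pkm (SE 0.65, adjusted p = 0.237). It was between -0.12 and 0.35 for the other 6 genes, and -0.02 (95% confidence interval -0.51 to 0.48) for Gys2. With limma 7 of 8 endothelial and 5 of 10 monocyte and neutrophil markers were lower here. So were 3 of 10 Kupffer cell, 3 of 8 stellate cell and 1 of 8 lymphocyte markers. Of 9 erythroid and 5 cholangiocyte markers 0 passed, and 2 of 10 hepatocyte markers were higher. Their part in the values of Hk1, Hk2 and Pkm was not tested. Without WT hepatocytes replicate 3 the values for Hk1, Hk2 and Pkm were -0.63, -0.49 and -0.77, and with both libraries that stood apart left out, an alternative chosen after seeing the data, they were -0.69, -0.60 and -0.93, with 0 of the 9 past the test by limma. Without WT hepatocytes replicate 2, Hk1 at -1.38 (adjusted p = 0.0817) and Pkm at -1.76 (adjusted p = 0.0999) passed, where 2232 of the 17386 genes were lower. Over the alternatives adjusted p ran from 0.0817 to 0.315 for Hk1 and from 0.0999 to 0.440 for Pkm. Median-ratio size factors shifted the median of all genes here by 0.12 and turned the small values of Pck1 and Gys2 to 0.02 and 0.13. Over all genes these factors gave 549 higher and 491 lower calls, instead of 409 and 1303. Without WT whole liver replicate 1, 78 of all genes passed instead of 1712.

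The second question was where these genes are expressed, for which WT hepatocytes were compared with WT whole liver. How the cells were isolated and which cells are in a sample cannot be told apart in it. With limma 0 of the 9 genes passed, where 0.104% of all genes were higher and 1.42% lower in hepatocytes. Of the 9, 2 genes had an unadjusted p under 0.05, Pck1 at 0.50 (SE 0.17, adjusted p = 0.218) and G6pc at 0.53 (SE 0.20, adjusted p = 0.246), both higher in hepatocytes, and 0 passed by the two-sample test. Of the 17386 genes, 3272 had an unadjusted p under 0.05 and 26 passed by the two-sample test. Every WT hepatocyte library had more Pck1 than every WT whole liver library, while G6pc overlapped through WT whole liver replicate 3. Without that library both passed, at 0.70 and 0.77 (adjusted p = 0.0851 for each, against highest values over the alternatives of 0.522 and 0.548), where 8 of the 17386 genes were higher. Hk1, Hk2 and Pkm were lower in hepatocytes by -0.44, -0.64 and -0.62, with no call. Without WT hepatocytes replicate 3 the 3 passed, at -0.92 (adjusted p = 0.0510), -0.998 (adjusted p = 0.0627) and -1.20 (adjusted p = 0.0476), against highest adjusted p over the alternatives of 0.858, 0.587 and 0.833. In that alternative 2656 of the 17386 genes were lower. Slc2a2 (0.17), Fbp1 (-0.04), Pklr (-0.0037) and Gys2 (-0.06) had differences with confidence intervals that include 0, and with median-ratio size factors those of Fbp1, Pklr and Gys2 were 0.09, 0.12 and 0.06. In this comparison 0 of the 10 Kupffer cell and macrophage markers, 0 of the 8 endothelial and 0 of the 8 stellate cell markers passed with limma, with median log2 fold changes of -0.62, 0.07 and -0.99. Lower in hepatocytes were 3 of 5 cholangiocyte, 2 of 8 lymphocyte, 1 of 9 erythroid and 1 of 10 monocyte and neutrophil markers.

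Around these 9 genes, 108 others of the same pathways were listed in 12 roles. In hepatocytes 28 of the 108 passed, 19 higher and 9 lower in Cdk1 Liv-/-. The median log2 fold change over the 108 was 0.05, as it was over all genes. With median-ratio size factors it was 13 higher and 10 lower, so 56.5% of the calls were higher instead of 67.9%, where the share over all genes went from 64.7% to 54.8%. Leaving out WT hepatocytes replicate 1 or 2 gave 12 and 17 calls, and leaving out Cdk1 Liv-/- hepatocytes replicate 3 gave 18, where calls over all genes went from 3257 to 1559, 2498 and 2053. In whole liver 60 of the 108 passed, 32 higher and 28 lower, with a median of 0.09 against 0.18 over all genes. There the split turned with the scaling, to 17 higher and 39 lower with median-ratio size factors, so 30.4% of the calls were higher instead of 53.3%, where the share over all genes went from 83.5% to 52.1%. Leaving out WT whole liver replicate 1 gave 35 calls, where calls over all genes went from 7920 to 5368.

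**Figure D4:**
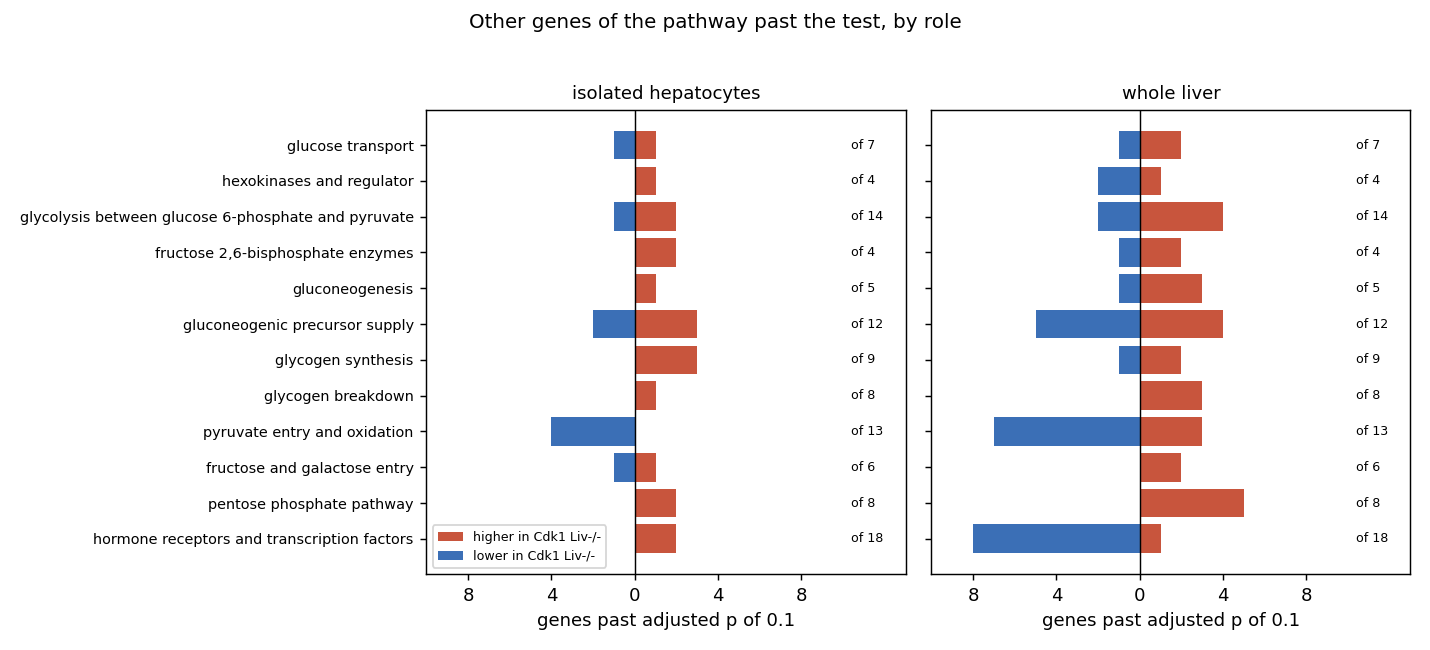
Number of the other genes of each role with an adjusted p of at most 0.1, higher (red, to the right) and lower (blue, to the left) in Cdk1 Liv-/-, in isolated hepatocytes and in whole liver; the number tested stands at the right. The most calls are in pyruvate entry and oxidation in whole liver (3 higher and 7 lower of 13) and in precursor supply in hepatocytes (3 higher and 2 lower of 12), where over all genes 38.0% are higher and 7.53% lower in whole liver and 12.1% and 6.61% in hepatocytes. With median-ratio size factors the whole liver split over all roles turns from 32 higher and 28 lower to 17 and 39. That over all genes goes from 6610 higher and 1310 lower to 3104 and 2853.

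The genes named next passed whichever single library was left out. Among transporters, Slc2a9, which carries urate and hexoses, fell by 0.67 in hepatocytes (SE 0.08, limma adjusted p = 0.00583) and by 0.41 in whole liver (SE 0.06, adjusted p = 0.00588). Hkdc1, a hexokinase of low level, went from at most 0.03 FPKM in WT hepatocytes to 0.15, 0.18 and 0.19 in Cdk1 Liv-/- hepatocytes, and in whole liver from 0.04, 0.14 and 0.10 FPKM (WT) to 0.74, 0.74 and 0.36. It passed in both, at 0.38 (SE 0.07) and 0.89 (SE 0.17), on few reads, and in hepatocytes in 14 of 16 alternatives. Its WT means, 0.02 FPKM in hepatocytes and 0.09 in whole liver, were under the filter of 0.1 FPKM. It met that filter through the Cdk1 Liv-/- libraries (means 0.17 and 0.61), so its values are given as a description. Among the enzymes that make and break fructose 2,6-bisphosphate, the activator of glycolysis, Pfkfb3 rose by 0.92 and Pfkfb4 by 1.01 in whole liver, while Pfkfb1, the form of liver, fell by 0.69 (SE 0.08, adjusted p = 0.00339). The whole liver means, WT and Cdk1 Liv-/-, were 2.27 and 4.82 FPKM for Pfkfb3, 0.56 and 1.68 for Pfkfb4 and 23.0 and 14.1 for Pfkfb1. In hepatocytes Pfkfb1 averaged 21.7 and 24.4 FPKM, and its groups overlapped. Pcx, pyruvate carboxylase, rose by 0.43 in whole liver (SE 0.07, adjusted p = 0.00956), a call lost with median-ratio size factors (0.21, adjusted p = 0.128, the highest over the alternatives).

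Precursor supply held the largest changes among the 108 genes for which values are given. Gpt2, the mitochondrial alanine aminotransferase, was at 15.8, 13.7 and 17.1 FPKM in WT hepatocytes and at 76.9, 80.6 and 83.8 in Cdk1 Liv-/- hepatocytes. In whole liver it was at 13.99, 12.3 and 16.9 FPKM in WT and at 42.6, 56.7 and 43.0 in Cdk1 Liv-/-. Every Cdk1 Liv-/- library was above every WT library, and Gpt2 rose by 2.34 (SE 0.10, limma adjusted p = 0.000409) and by 1.68 (SE 0.16, adjusted p = 0.00205). Gpt, the cytosolic form, was at 82.1, 62.4 and 67.1 FPKM in WT whole liver and at 27.1, 14.4 and 21.0 in Cdk1 Liv-/- whole liver, where it fell by 1.77 (SE 0.24, adjusted p = 0.00518). In hepatocytes Gpt was at 57.0, 52.6 and 54.99 FPKM in WT and at 124, 68.2 and 108 in Cdk1 Liv-/-, higher in 3 of 3 libraries, at 0.82 (SE 0.22, adjusted p = 0.0659). That call was kept without Cdk1 Liv-/- hepatocytes replicate 2 (1.07, adjusted p = 0.00795) and lost without any 1 of the other 5 hepatocyte libraries, at 0.64 to 0.85 with adjusted p from 0.137 to 0.175. The difference between the compartments was 2.59 (SE 0.34, adjusted p = 0.0121).

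In glycogen metabolism, Gbe1, the branching enzyme, was at 16.2, 18.6 and 14.6 FPKM in WT hepatocytes and at 32.7, 29.4 and 27.0 in Cdk1 Liv-/- hepatocytes, a rise of 0.83 (SE 0.12, limma adjusted p = 0.0109). The Gys2 value there, -0.52, was opposite in sign but missed the threshold (limma adjusted p = 0.146). In whole liver, where Gys2 passed as lower, Gbe1 was at 18.2, 18.7 and 16.1 FPKM in WT and at 18.3, 18.4 and 20.9 in Cdk1 Liv-/-, with overlap. Phkb, a subunit of phosphorylase kinase, rose by 0.74 (SE 0.10, adjusted p = 0.00891) in hepatocytes and by 0.53 (SE 0.10, adjusted p = 0.0128) in whole liver. The whole liver value was as low as 0.32 over the alternatives, and Phkb passed there in 16 of 17. Gyg, glycogenin, which primes glycogen synthesis, rose by 0.63 in whole liver (SE 0.14, adjusted p = 0.0191).

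On the way from pyruvate into the mitochondria, Mpc1 and Mpc2, the subunits of the pyruvate carrier, fell by 0.73 and 0.54 in hepatocytes. Over 17 alternatives there, Mpc1 passed in 16 and Mpc2 in 15. Dlat, a subunit of pyruvate dehydrogenase, was at 19.8, 20.1 and 18.4 FPKM in WT hepatocytes and at 10.1, 11.5 and 11.45 in Cdk1 Liv-/- hepatocytes, and at 17.5, 19.6 and 18.1 against 12.5, 11.6 and 15.4 in whole liver. It fell by 0.79 (SE 0.09, limma adjusted p = 0.00560) and by 0.48 (SE 0.11, adjusted p = 0.0247). In whole liver Pdk2 fell by 0.62 and Pdk3 rose by 0.68, both kinases that switch pyruvate dehydrogenase off. Their means there, WT and Cdk1 Liv-/-, were 34.1 and 22.1 FPKM for Pdk2 and 1.51 and 2.72 for Pdk3. Pdk4, a kinase of the same kind, averaged 6.48 and 14.9 FPKM and was also called higher, but in only 8 of 17 alternatives. In the pentose phosphate pathway, Pgd and Tkt rose in whole liver by 0.99 (SE 0.10, adjusted p = 0.00236) and 0.65 (SE 0.10, adjusted p = 0.00681). Among transcription factors, Srebf1, which drives lipid synthesis and responds to insulin, fell by 0.71 in whole liver (SE 0.12, adjusted p = 0.0108). It passed there in 15 of 17 alternatives.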

How the data were processed

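The authors sequenced poly(A) RNA (TruSeq stranded, single-end, 75 bases) from 12 libraries, 3 in each of 4 groups. The FPKM values were used as deposited; the submitters' processing notes name STAR (no version in the sources used here) and RSEM 1.2.31 on mm10. Values were taken as log2(FPKM + 0.5), which understates fold changes of low genes. Genes with a mean of at least 0.1 FPKM (17386) were tested with limma 3.58.1 in R 4.3.3 (eBayes with trend, two-sided, Benjamini-Hochberg over all genes), with a threshold of 0.1 on adjusted p; the fit was tested on simulated data. Comparisons were Cdk1 Liv-/- against WT in each compartment, their interaction, and WT hepatocytes against WT whole liver. The 9 genes, 108 other pathway genes in 12 roles and 8 marker lists were written down with earlier results of these data known. Of 82 symbols listed for more than 1 gene, the entry with the higher mean was used (Itgam among the markers). Pathway genes with values in the text passed the test or are counterparts of the 9 genes. Of the 108, 2 genes are included in counts only and are not otherwise reported here. Depth was estimated from the spacing of low FPKM values and transcript lengths. Alternatives, fixed with those earlier results known but before the values were examined for this report except where stated, changed the added constant, filter, scaling, variance model, test, replicate block and fold threshold, or left out each library in turn.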

Additional observations from a re-analysis of the deposited data

Results flagged for a closer look

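Outside the 9 genes, 13 of the 108 pathway genes passed the limma interaction test, 10 with a higher and 3 with a lower log2 fold change in hepatocytes than in whole liver, where 2.35% and 7.49% of all genes did. With median-ratio size factors 549 of all genes were higher and 491 lower, instead of 409 and 1303. Without WT whole liver replicate 1, 78 of all genes passed instead of 1712. The differences of 12 of the 13 pathway genes are given as hepatocytes minus whole liver and, for these genes, were not recomputed under the alternatives. Handling and the cells in a sample cannot be told apart in them either. Gpt differed by 2.59 (adjusted p = 0.0121). Slc2a5 differed by 1.17 (adjusted p = 0.0709). Mlxipl differed by 1.13 (adjusted p = 0.0350). Pfkfb1 differed by 0.84 (adjusted p = 0.0754). Gbe1 differed by 0.72 (adjusted p = 0.0472). Gpt2 differed by 0.66 (adjusted p = 0.0869). Mdh1 differed by 0.63 (adjusted p = 0.0516). Hnf4a differed by 0.58 (adjusted p = 0.0681). Cebpa differed by 0.54 (adjusted p = 0.0905). Slc2a10 differed by -0.41 (adjusted p = 0.0856). Its means were 0.06 and 0.02 FPKM in WT and Cdk1 Liv-/- hepatocytes and 0.19 and 0.34 in whole liver. It met the filter of 0.1 FPKM through whole liver, so its value is given as a description. Galk1 differed by -0.70 (adjusted p = 0.0273). Pygm differed by -1.14 (adjusted p = 0.0598).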

How the results depend on the processing

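Over all results and alternatives, 1786 values kept their direction and side of the threshold, 264 lost the call, 21 gained it, 17 moved and 53 changed sign.

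Of the pathway genes in hepatocytes, 28 at first, 17 passed without a filter on low values, 15 by a two-sample test per gene and 5 with a fold change of at least 2 required, while calls over all genes went from 3257 of 17386 to 2354 (of 28019), 1920 and 1107. In whole liver that fold threshold left 10 of 60 pathway genes and 0 of 2 among the 9 genes with limma, where 2 had an unadjusted p under 0.05 and 2 passed by the two-sample test. Of all 17386 genes, 972 passed with that threshold, 8109 had an unadjusted p under 0.05 and 6674 passed by the two-sample test. In 1 fit of all 12 libraries, 1 of the 9 genes passed in hepatocytes.

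With a replicate block, 14 pathway genes passed in hepatocytes instead of 28, and 1456 of all genes instead of 3257. Between groups, deviations from the group mean of libraries with equal replicate numbers correlated at r from -0.32 to 0.24. Of 12 libraries, 2 were closest to their own number. With 3 libraries a group this cannot show that no animal or batch was shared, and the cause of the lower count was not tested.

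Median-ratio size factors turned the sign of Pklr (-0.074) and Gys1 (-0.020) in hepatocytes, Fbp1 (-0.17) and Slc2a2 (-0.14) in whole liver, Pck1 (0.023) and Gys2 (0.13) in the interaction, and Fbp1 (0.086), Pklr (0.12) and Gys2 (0.064) in WT hepatocytes against WT whole liver. The same FPKM sum in every library turned Pygl in hepatocytes (0.0085) and Pklr in WT hepatocytes against WT whole liver (0.034). With both libraries that stood apart left out, chosen after seeing the data, Gys2 in the interaction was 0.034.

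With 1 library left out in turn, the test takes the spread of what is left of its group to equal that elsewhere. Counts then ran from 0 to 1 of the 9 genes and 12 to 28 pathway genes in hepatocytes, from 35 to 58 pathway genes in whole liver, from 0 to 2 of the 9 genes in the interaction and from 0 to 3 of the 9 in WT hepatocytes against WT whole liver. The log2 fold changes that changed sign in hepatocytes were Hk2 (-0.31 to 0.27), Pck1 (-0.40 to 0.040), Pklr (-0.21 to 0.18), Slc2a1 (-0.062 to 0.29), Fbp2 (-0.094 to 0.11), G6pc3 (-0.14 to 0.0080), Slc37a4 (-0.15 to 0.49), Gys1 (-0.10 to 0.26) and Pygl (-0.092 to 0.052). In whole liver they were Pck1 (-0.16 to 0.15), Fbp1 (-0.061 to 0.19), Slc2a2 (-0.0031 to 0.24), Slc2a1 (-0.020 to 0.47) and Gys1 (-0.00808 to 0.43). In the interaction they were Pck1 (-0.34 to 0.093), G6pc (-0.019 to 0.46), Pklr (-0.0089 to 0.38), Gys2 (-0.16 to 0.22) and Slc2a2 (-0.066 to 0.21). In WT hepatocytes against WT whole liver they were Fbp1 (-0.14 to 0.057) and Pklr (-0.16 to 0.21).

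At the depth estimated here, Hk2 and Hk1 rest on the fewest reads of the 9 genes, so their values carry the most counting error.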
